A study of Mus musculus with 6 samples.

Results

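The genes described here encode the enzymes, regulators, transfer protein and receptors of ceramide and sphingolipid metabolism. They were chosen by name, as 41 mouse genes whose products make, modify, move, break down or sense these lipids. No value of a gene was a criterion, but earlier results of these data were known when the list was made. Of the 41 genes, 38 were among the 21456 genes of the deposited table, and Sptlc3, Sptssb and Acer1 were not found there by symbol. A mean normalized count of at least 10 over the 6 mice was required for the test, which 37 of the 38 genes and 16157 genes of the whole table met. Sgpp2 was the member nearest above this limit, with a mean of 11.5, and Cers3 was the member below it, with a mean of 7.81.

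Ceramide is built at the endoplasmic reticulum from serine and palmitoyl-CoA. Serine palmitoyltransferase starts the pathway and ORMDL proteins restrain it, a reductase follows, and ceramide synthases then attach a fatty acid whose chain length depends on the synthase before a desaturase completes ceramide. Ceramide is carried to the Golgi and turned into sphingomyelin or glycosphingolipids, or it is cut by ceramidases to sphingosine, which sphingosine kinases turn into sphingosine-1-phosphate (S1P), the ligand of a family of G protein-coupled receptors. In white adipose tissue (WAT), ceramides are known for their links to insulin action and to the unfolded protein response.

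RNA from adipose tissue was sequenced in 3 control mice and 3 Ntsr2 AKO mice, and the study's text describes the tissue as WAT. The control mice were Ntsr2 flox/flox, and the Ntsr2 AKO mice carried Adipoq-cre together with Ntsr2 flox/flox, so both groups held the floxed allele and only the AKO group held the Cre transgene. The Adipoq promoter is active in white and in brown adipocytes, and other cells of the tissue keep the gene. Chow was the diet of all 6 mice, and the fat depot, age and sex of the sequenced mice were not given in the sources used here. The study asked whether loss of NTSR2, a receptor for the peptide neurotensin, changed ceramide metabolism in WAT, and the comparison here asks how the transcripts of that metabolism differed between the genotypes. Mice are named by their label numbers, which were 3, 4 and 5 in each group.

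The targeted gene, Ntsr2, measured 83.8, 64.0 and 153 normalized counts in control mice and 3.097, 8.29 and 0 in Ntsr2 AKO mice, so no AKO mouse overlapped a control mouse (log2 fold change -4.81, adjusted p = 0.499 in limma and 0.00012 in DESeq2). Library totals were 60405373 to 66098226 reads in control and 54085088 to 56268725 in Ntsr2 AKO mice. The summed level of 7 adipocyte markers, all present, was 1113723 to 1642591 in control and 1440934 to 1643543 in AKO mice. The summed level of 10 skeletal muscle markers, all present, was 1006, 533 and 2617679 in control 3, 4 and 5 and 1567, 84571 and 188424 in Ntsr2 AKO 3, 4 and 5, so control 5 stood far apart and AKO 4 and AKO 5 lay above the other 3 mice. In bulk tissue, fewer cells of a type and less RNA per cell cannot be told apart.

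Most of the 37 tested members differed little between the genotypes, and the transcript that differed most was Sphk1, the inducible sphingosine kinase, whose mean was 8.41-fold lower in Ntsr2 AKO WAT. No member had an adjusted p under 0.05 in limma, where 1 gene of all those tested did (0.00619%). At an unadjusted p under 0.05, 2 of the 37 members were lower (Sptlc2 and Sphk1) and 1 was higher (Galc), against 5.27% of all tested genes lower and 3.08% higher. In 3 members every AKO mouse was below every control mouse (Sptlc2, Sphk1 and S1pr3) and in 1 member every AKO mouse was above (Galc), against 8.16% and 6.82% of all tested genes. The 3 and 1 members without overlap were 8.11% and 2.70% of the 37, beside those backgrounds.

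The median log2 fold change (AKO minus control) of the 37 members was -0.08, beside -0.01 over all tested genes. Of the members, 25 had a value below 0 and 12 above, beside 8236 and 7921 of the 16157 tested genes. Within 0.5 of 0 on the log2 scale lay 32 of the 37 members, beside 12595 of the 16157 tested genes. An absolute value over 1 was found in 3 of the 37 members, where 7.2% of all tested genes had one. They were Sphk1, S1pr3 and Cers1, and the value of Cers1 rested on control 5 alone and was 0 without it. The small median depended on the scaling, since quantile normalization gave 0.0066 with 18 members below 0, beside 0.05 over all genes. Within a group, the median coefficient of variation of the members was 15.6% in control and 12.0% in AKO mice.

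**Figure D1:**
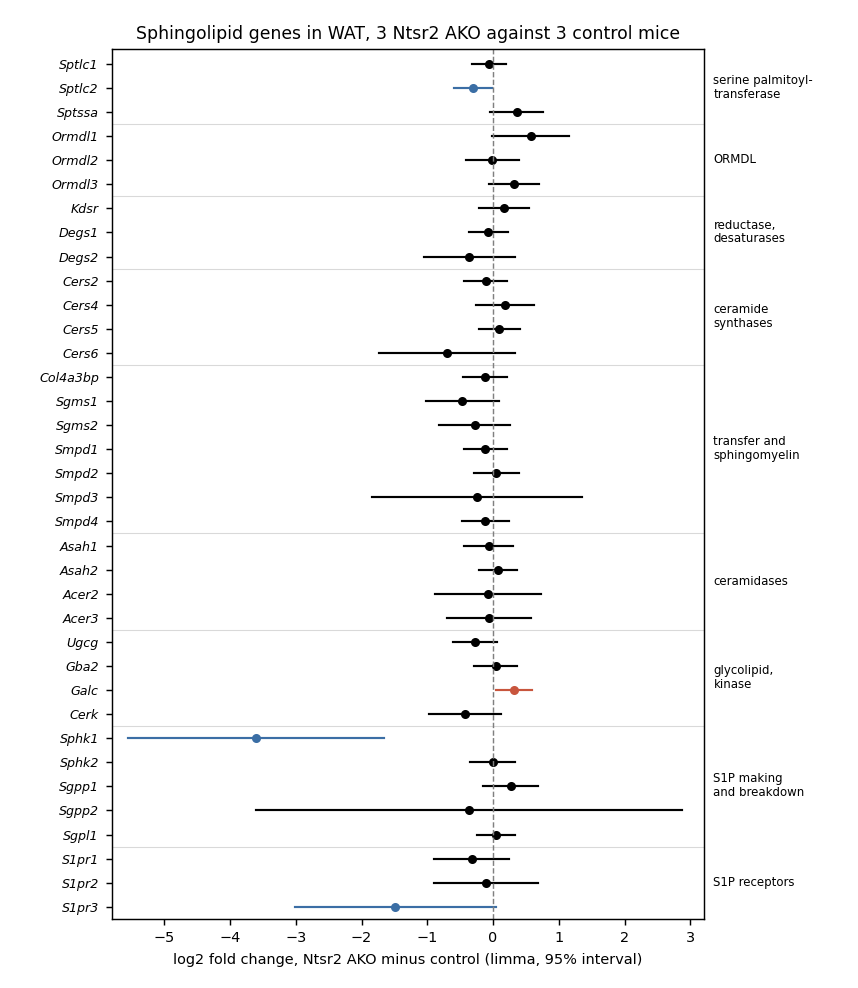
Log2 fold change (Ntsr2 AKO minus control, horizontal axis) of 36 tested members, grouped by role, as limma estimates (points) with 95% intervals (lines). Blue marks members in which every AKO mouse was below every control mouse, red marks the member in which every AKO mouse was above, and Cers1, which had reads in 1 mouse only, is left out. Most points lie near 0, and Sphk1 at -3.60 lies farthest from it.

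The count models gave the same leading gene. DESeq2 on the recovered reads called 1 member, Sphk1, at an adjusted p under 0.05, where it called 1.38% of all genes it tested, and 6 members had an unadjusted p under 0.05 beside 10.6% of all genes. The quasi-likelihood test of edgeR called 0 members and 0 genes at the adjusted threshold, and 3 members had an unadjusted p under 0.05 beside 8.19% of all genes.

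Serine palmitoyltransferase joins serine and palmitoyl-CoA in the first step of the pathway. Sptlc2, which encodes a catalytic subunit, measured 2301, 2768 and 2332 normalized counts in control 3, 4 and 5 and 2076, 2016 and 1893 in Ntsr2 AKO 3, 4 and 5. The 3 AKO mice were below the 3 control mice with no overlap, and the mean was 1.24-fold lower. On the log2 scale the difference was -0.30 (SE 0.12, 95% interval -0.59 to -0.01, limma adjusted p = 0.590), which did not pass the threshold. Sptlc1, which encodes its partner subunit, had means of 3161 ± 210 and 3034 ± 168 (SD, n = 3) in control and AKO mice.

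Sptssa, which encodes a small activating subunit, measured 2742, 3205 and 2532 in control and 2927, 3907 and 4087 in AKO mice. AKO 4 and AKO 5 were above every control mouse and AKO 3 was among them, so the groups overlapped (log2 fold change 0.36, SE 0.17, limma adjusted p = 0.616). Without control 5, AKO 4 and AKO 5, the log2 fold change of Sptssa was -0.02. Of the 3 measured subunits, Sptlc1 and Sptlc2 had values below 0 and Sptssa a value above 0 with all mice.

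ORMDL proteins bind serine palmitoyltransferase and restrain it when ceramide is plentiful. Ormdl3 was the most abundant transcript of the family, at 86.8% to 92.3% of its summed level per kilobase of exon in the 6 mice. Its normalized counts were 16850, 12457 and 13841 in control and 18148, 19810 and 15762 in AKO mice, with AKO 3 and AKO 4 above every control mouse and AKO 5 among them (log2 fold change 0.32, SE 0.16, limma adjusted p = 0.624).

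Ormdl1 measured 489, 368 and 591 in control and 542, 766 and 839 in AKO mice, and AKO 4 and AKO 5 exceeded every control mouse while AKO 3 did not. Its log2 fold change was 0.57 (SE 0.25, 95% interval -0.02 to 1.16, limma adjusted p = 0.600), the highest among the members, and 0.35 without the 3 mice with muscle transcripts. Ormdl2 measured 906, 1312 and 1115 in control and 1086, 1011 and 1177 in AKO mice, within the control range throughout. Exons of Dnajc14 on the opposite strand cover 66.7% of the exon bases of Ormdl2, and because the counting was not stated to use strand, reads of both genes may be mixed.

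The reductase and the desaturases act before and after the ceramide synthases. Kdsr, the 3-ketodihydrosphingosine reductase, measured 4078, 3043 and 3205 in control and 3752, 4370 and 3425 in AKO mice (log2 fold change 0.17, SE 0.16). Degs2, the desaturase that can also add a hydroxyl group, measured 200, 324 and 202 in control and 156, 167 and 236 in AKO mice (log2 fold change -0.36, SE 0.29). Both sets of values overlapped. Degs1, the main dihydroceramide desaturase, had means of 5165 ± 581 and 4902 ± 289 (SD, n = 3).

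Ceramide synthases give a ceramide its acyl chain, and the study turned on Cers2, which makes ceramides with very long chains. What the study reported in Ntsr2 AKO white fat was more phosphorylation of the CerS2 protein and more of these ceramides. Transcript levels measure neither. Cers2 measured 10029, 10197 and 7936 normalized counts in control 3, 4 and 5 and 9331, 8349 and 8212 in Ntsr2 AKO 3, 4 and 5. All 3 AKO values lay inside the control range. The log2 fold change was -0.11 (SE 0.14, limma adjusted p = 0.828) and its 95% interval of -0.44 to 0.21 left room for a decrease or an increase, while quantile normalization gave 0.0066. Cers2 was the most abundant ceramide synthase in every mouse, at 60.8% to 70.7% of the summed level per kilobase of exon.

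Cers5 and Cers6 make ceramides with shorter chains. Cers5 measured 2975, 2925 and 2324 in control and 2878, 2980 and 2871 in AKO mice, with control 5 the lowest of the 6 and the others close together (log2 fold change 0.09, SE 0.13, limma adjusted p = 0.854). Its share of the summed level per kilobase was 18.5% to 24.5%. Cers6 measured 1318, 1880 and 4689 in control and 1397, 1534 and 1274 in AKO mice, and control 5 was 2.49-fold above the next mouse. For Cers6 the log2 fold change was -0.70 (SE 0.43, limma adjusted p = 0.687) with control 5 and -0.17 (SE 0.20) without it.

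Cers4 measured 1707, 1489 and 1785 in control and 2173, 2099 and 1444 in AKO mice, so AKO 3 and AKO 4 were above and AKO 5 was below every control mouse (log2 fold change 0.18, SE 0.19, limma adjusted p = 0.802). Its share per kilobase was 3.08% to 4.95%. Cers3, which serves skin and testis, measured 10.1, 20.6 and 3.84 in control and 0, 5.18 and 7.08 in AKO mice, and was too low to be tested. Its reads numbered 35 in all control mice and 12 in all AKO mice.

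Cers1, a synthase of brain and skeletal muscle, was at 0 in 5 mice and at 197 normalized counts in control 5, the mouse with the highest skeletal muscle markers. A count of 0 allows up to 3 reads per mouse, and no fold change is given because 1 mouse carried all 205 reads. Gdf1 lies on the same strand and shares 42.5% of the exon bases of Cers1, so reads can be split between them, and Gdf1 measured 0, 8.25 and 161 in control and 12.4, 46.6 and 104 in AKO mice.

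**Figure D2:**
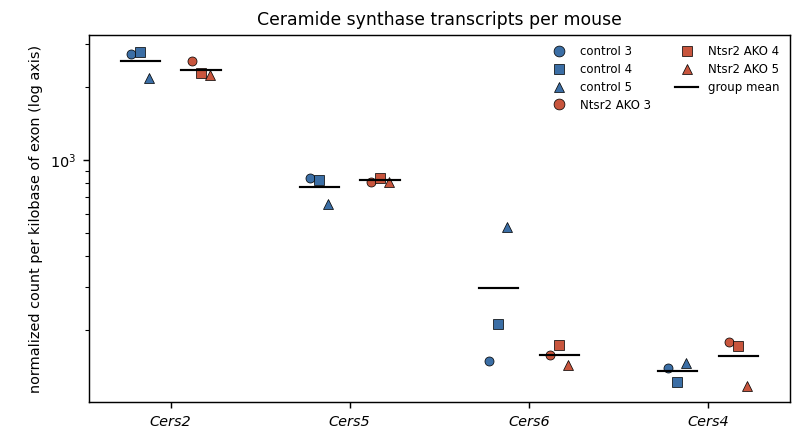
Level of 4 ceramide synthases in each mouse, as normalized count per kilobase of exon on a logarithmic vertical axis, with control mice in blue, Ntsr2 AKO mice in red and a line for each group mean. Cers2 was the highest in all 6 mice, the groups overlapped for every synthase, and control 5 (blue triangle) lay above the others for Cers6.

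Per kilobase of exon, the mean level over the 6 mice was 2451 for Cers2, 798 for Cers5, 227 for Cers6 and 145 for Cers4. The levels of Cers2, Cers5 and the other pair did not overlap in any mouse, while those of Cers6 and Cers4 overlapped between mice. Without control 5 the mean of Cers6 was 167, beside 145 for Cers4. With the longest transcript as the length, the mean share of Cers2 in control mice was 72.8%, beside 67.3% with all exons.

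The reagents the study used for these genes are shown because they define which transcript each of its ceramide synthase measurements and its knockdown address. Sequences came from the study's supplementary lists, were matched to GENCODE transcripts of GRCm38, and are written 5′ to 3′ in lower case. The first is the Cers2 shRNA target and the others are the forward and reverse quantitative PCR primers.

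Cers2 shRNA: ccagctggagattcacgtatt
Cers2 forward: aactacgcgggatggaagaa
Cers2 reverse: gcatctgtagcactgccatc
Cers5 forward: atccgtatcagccactctcg
Cers5 reverse: actcgcaccatgttgttgac
Cers6 forward: catagccaaaccatgtgcca
Cers6 reverse: tgcgtctttgtcgaaaccag

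Each of the 7 sequences matched the transcripts of 1 gene only. The shRNA target lies in the coding sequence of Cers2 across the junction of exons 4 and 5 (bases 670 to 690 of transcript Cers2-201; chr3:95321057-95321206, plus strand, with an intron between). The Cers2 primers lie in coding exons 9 and 10 (from chr3:95322142-95322161 to chr3:95322395-95322414) and span 187 bases of transcript. The Cers5 primers lie in coding sequence from chr15:99741028-99741619, across exons 5 and 6, to chr15:99739651-99739670 in exon 7 (minus strand, 184 bases). The Cers6 primers lie in coding exons 2 and 3, at chr2:68934518-68934537 and chr2:68947295-68947314 (plus strand, 191 bases).

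Col4a3bp encodes the ceramide transfer protein CERT, which carries ceramide from the endoplasmic reticulum to the Golgi for sphingomyelin synthesis. For CERT the study reported a change in phosphorylation, which transcript levels do not measure. Col4a3bp measured 3689, 2837 and 3546 in control and 3063, 3310 and 2834 in AKO mice, with AKO 5 just below the lowest control mouse and the others within the control range. The difference was -0.12 on the log2 scale (SE 0.14, 95% interval -0.46 to 0.21, limma adjusted p = 0.820).

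Sgms1, the Golgi sphingomyelin synthase, measured 3832, 2764 and 3031 in control and 2850, 2573 and 1661 in AKO mice. AKO 4 and AKO 5 were below every control mouse and AKO 3 was not (log2 fold change -0.47, SE 0.23, 95% interval -1.02 to 0.09, limma adjusted p = 0.625). Its plasma membrane counterpart Sgms2 was lower in level, at 50.1 per kilobase against 264 for Sgms1, with means of 345 ± 89.1 and 278 ± 4.8 (SD, n = 3) normalized counts.

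Sphingomyelinases release ceramide from sphingomyelin. Smpd2 had the highest log2 fold change of this group, 0.05 (SE 0.14), from 1223, 1089 and 973 in control and 1021, 1176 and 1194 in AKO mice, all within the control range. Mical1 on the opposite strand covers 20.3% of its exon bases. Smpd1, the acid form of the lysosome, and Smpd4 had log2 fold changes of -0.12 each (SE 0.14 and 0.15).

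Smpd3, the neutral sphingomyelinase of the plasma membrane, is named because its values were seen to be uneven. It measured 578, 366 and 1640 in control and 1311, 375 and 423 in AKO mice, so 1 mouse of each group was high, control 5 and AKO 3. Its log2 fold change was -0.25 (SE 0.67), 0.36 without control 5, and 1.51 when the 3 mice with muscle transcripts were left out and AKO 3 was the only AKO mouse.

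**Figure D3:**
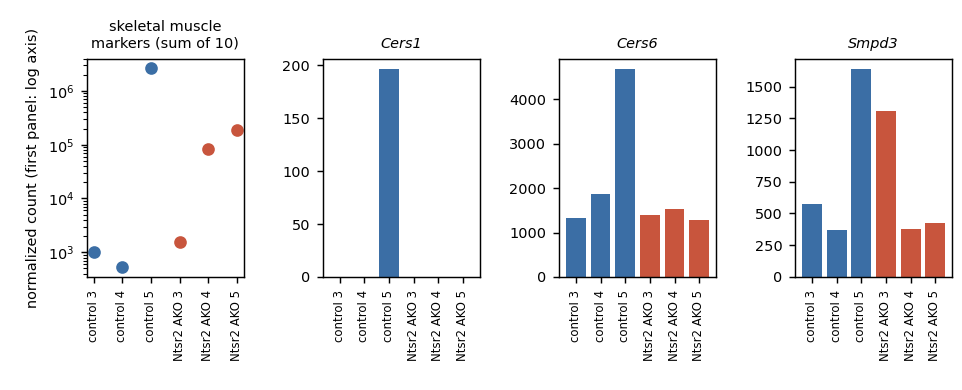
Summed normalized count of 10 skeletal muscle markers (first panel, logarithmic axis) and normalized counts of Cers1, Cers6 and Smpd3 (bars from 0, linear axes) in each of the 3 control (blue) and 3 Ntsr2 AKO (red) mice. Control 5 is the highest mouse in all 4 panels, and AKO 3, with few muscle transcripts, is the next highest for Smpd3. The genes were chosen for the figure because control 5 was high in them.

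Cers1, Cers6 and Smpd3 were shown because control 5, the mouse with the highest muscle marker sum, was high in them. Their peak in that mouse is therefore no separate result. Ugcg, at 2272, and Sphk1, at 1601, were also highest in control 5. Cers1 met the limit for the test only through control 5, since its mean of 32.8 was 0 without that mouse. All 10 muscle markers were highest in control 5. AKO 4 and AKO 5, whose marker sums came next, had 0 reads of Cers1, and their Cers6 and Smpd3 lay below the highest of the 3 mice with few muscle transcripts. Gdf1, whose reads can be mixed with those of Cers1, measured 161 in control 5, 46.6 in AKO 4 and 104 in AKO 5. It measured 0, 8.25 and 12.4 in control 3, control 4 and AKO 3. The part of muscle RNA in these values was not tested.

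Ceramidases split ceramide into sphingosine and a fatty acid, and none of the 4 that were tested differed beyond the spread. Acer2, the Golgi enzyme, measured 3607, 4511 and 3058 in control and 3711, 5361 and 2108 in AKO mice, so both the highest and the lowest mouse were AKO (log2 fold change -0.08, SE 0.34, limma adjusted p = 0.960). Asah2, the neutral enzyme, measured 1884, 1590 and 1609 in control and 1800, 1827 and 1713 in AKO mice (0.08, SE 0.12), with all AKO values in the control range. Asah1, the acid enzyme of the lysosome, was the most abundant per kilobase at 1527 and had means of 5302 ± 829 and 5049 ± 666 (SD, n = 3). Acer3 had a log2 fold change of -0.06 (SE 0.27).

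Enzymes of glycosphingolipids and ceramide phosphate formed the next group. Galc, the lysosomal enzyme that removes galactose from galactosylceramide, measured 1288, 1176 and 1347 in control and 1536, 1667 and 1544 in AKO mice. Every AKO mouse was above every control mouse, and the mean was 1.25-fold higher. The log2 fold change was 0.32 (SE 0.12, 95% interval 0.04 to 0.60, limma adjusted p = 0.565), which did not pass the threshold, and the adjusted p ranged from 0.289 to 1 over the alternatives.

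Cerk, the ceramide kinase, measured 1301, 2045 and 1466 in control and 1464, 958 and 1151 in AKO mice, with AKO 4 and AKO 5 below every control mouse (log2 fold change -0.42, SE 0.23, limma adjusted p = 0.643). Ugcg, which adds the first glucose to ceramide, had means of 2125 ± 128 and 1771 ± 256, and Gba2, which removes that glucose outside the lysosome, had means of 933 ± 89.5 and 958 ± 68.3 (SD, n = 3).

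Sphingosine kinases turn sphingosine into S1P, and Sphk1 is the form that growth factors and inflammatory signals induce. Sphk1 measured 934, 658 and 1601 normalized counts in control 3, 4 and 5 and 285, 26.9 and 67.8 in Ntsr2 AKO 3, 4 and 5. The highest AKO mouse was below the lowest control mouse, and AKO 4 was lower than any control mouse by more than an order of magnitude. The means were 1064 ± 485 and 127 ± 139 (SD, n = 3), from 3322 reads over the control and 369 reads over the AKO mice.

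The log2 fold change of Sphk1 was -3.60 (SE 0.82, 95% interval -5.55 to -1.66), with an unadjusted p of 0.0033 and an adjusted p of 0.520 in limma. The adjusted p was 0.0052 with DESeq2 and 0.569 with the edgeR quasi-likelihood test, and it ranged from 0.0052 to 1 over the 17 alternatives. The unadjusted p was under 0.05 in 17 of the 17, with log2 fold changes from -4.51 to -1.46. The smallest of these came from leaving out control 5, AKO 4 and AKO 5, which compares 2 control mice with AKO 3 alone and assumes that AKO 3 varies like the control mice. Sphk1 was highest in the control mouse with most muscle transcripts and lowest in the AKO mice with some. Among the 3 mice with few of them, AKO 3 lay below control 3 and control 4. The part of muscle RNA in the Sphk1 values was not tested.

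**Figure D4:**
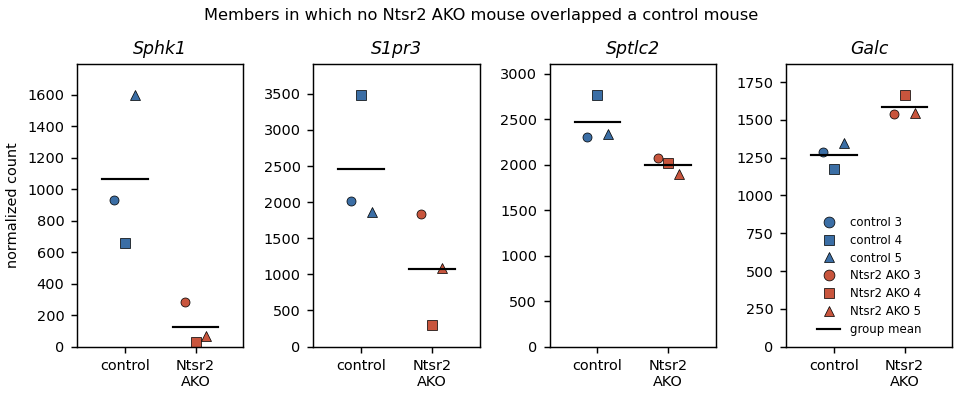
Normalized counts of Sphk1, S1pr3, Sptlc2 and Galc in each of the 3 control (blue) and 3 Ntsr2 AKO (red) mice, on linear axes from 0, with a line for the group mean. The gap between the groups is wide for Sphk1 and narrow for S1pr3, where AKO 3 lies just below the lowest control mouse.

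Sphk2, the constitutive kinase, had means of 1273 ± 112 and 1269 ± 146 (SD, n = 3), which differed by -0.01 on the log2 scale (SE 0.14, 95% interval -0.35 to 0.33). Sphk1 made up 37.1%, 33.1% and 52.2% of the summed kinase level per kilobase in control 3, 4 and 5 and 18.3%, 1.65% and 4.35% in AKO 3, 4 and 5, so Sphk2 was the more abundant kinase in all 3 AKO mice and in 2 of the 3 control mice. Dbp and Rpl18 on the opposite strand cover 12.96% and 8.97% of the exon bases of Sphk2.

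S1P is broken down by Sgpl1, the lyase that ends the pathway, or dephosphorylated by Sgpp1 and Sgpp2. Sgpp1 measured 2065, 2242 and 2356 in control and 2275, 2440 and 3423 in AKO mice, with AKO 4 and AKO 5 above every control mouse (log2 fold change 0.27, SE 0.18, limma adjusted p = 0.697). Sgpl1 had means of 7698 ± 548 and 7950 ± 740 (SD, n = 3; log2 fold change 0.04, SE 0.12). Sgpp2 ranged from 0 to 28.0 over the mice, too few reads to show a difference at this depth.

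S1P receptors were measured as S1pr1, S1pr2 and S1pr3. S1pr3 measured 2018, 3487 and 1858 in control and 1832, 297 and 1088 in AKO mice. The groups did not overlap, although AKO 3 lay only just below control 5, and the mean was 2.29-fold lower. The log2 fold change was -1.49 (SE 0.64, 95% interval -3.02 to 0.04, limma adjusted p = 0.600) and -0.53 without the 3 mice with muscle transcripts. The adjusted p ranged from 0.380 to 1 over the alternatives.

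S1pr1, the receptor of endothelium and lymphocytes, was the most abundant receptor in every mouse, at 65.7% to 93.6% of the summed receptor level per kilobase. Its means were 4559 ± 913 and 3666 ± 917 (SD, n = 3; log2 fold change -0.33, SE 0.24). S1pr2 measured 347, 476 and 507 in control and 400, 267 and 626 in AKO mice, so the lowest and highest mouse were both AKO (log2 fold change -0.11, SE 0.33, limma adjusted p = 0.946). The summed level of 5 endothelial markers, all present, was 15778 to 24332 in control and 15840 to 21809 in AKO mice, and that of 4 smooth muscle and pericyte markers was 14911 to 22872 and 13789 to 20564. The macrophage marker sum was 21346 to 67681 in control and 22991 to 54496 in AKO mice. The T and NK cell sum was 234 to 871 in control and 195 to 384 in AKO mice. For B cells the sum was 55.6 to 593 and 145 to 171, and control 3 was the highest mouse for both lymphocyte sums. The part of these cell types in the receptor levels was not tested.

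Sequence upstream of an annotated start was read for the 4 members whose groups did not overlap. Such members made up 8.11% (lower) and 2.70% (higher) of the 37, beside 8.16% and 6.82% of all tested genes. Lack of overlap was thus not more frequent here than among all genes. RefSeq promoter windows of GRCm38.p6 were found for 37 of the 41 members, and the 250 bases before the start are printed 5′ to 3′ on the strand of the gene. Capitals mark the GC box, which was searched with the letters GGGCGG. They also mark the CCAAT box, searched as its name is spelled, and the E-box, for which CACGTG was used. All were searched on both strands, and no marked match overlapped another. Sphk1 has 5 windows, of which the only one that overlaps none of its own annotated exons is printed. The printed window lies inside the annotated gene (chr11:116530925-116536674), so it precedes a start within the gene. Which start was used in this tissue was not tested. Of the others, 1 held a TATA box, searched as TATAAA. An AP-1 site, for which TGANTCA was searched, was found in 2 windows that overlap each other. The window that overlaps the printed one held the same E-box and CCAAT box.

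Sphk1, chr11:116532194-116532443, plus strand: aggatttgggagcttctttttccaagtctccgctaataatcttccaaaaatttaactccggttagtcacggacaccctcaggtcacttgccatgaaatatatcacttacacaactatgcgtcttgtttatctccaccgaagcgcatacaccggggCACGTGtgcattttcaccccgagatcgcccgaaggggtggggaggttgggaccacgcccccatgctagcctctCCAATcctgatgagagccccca
S1pr3, chr13:51408368-51408617, plus strand: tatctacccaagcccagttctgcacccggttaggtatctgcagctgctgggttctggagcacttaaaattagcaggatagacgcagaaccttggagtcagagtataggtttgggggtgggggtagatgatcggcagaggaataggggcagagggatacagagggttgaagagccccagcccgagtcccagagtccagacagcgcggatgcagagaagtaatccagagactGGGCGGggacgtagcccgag
Sptlc2, chr12:87388356-87388605, minus strand: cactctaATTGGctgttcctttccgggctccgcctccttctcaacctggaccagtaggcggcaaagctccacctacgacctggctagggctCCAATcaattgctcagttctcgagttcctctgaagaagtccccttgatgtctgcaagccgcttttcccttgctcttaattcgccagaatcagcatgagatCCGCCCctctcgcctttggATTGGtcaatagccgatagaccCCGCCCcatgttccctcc
Galc, chr12:98259460-98259709, minus strand: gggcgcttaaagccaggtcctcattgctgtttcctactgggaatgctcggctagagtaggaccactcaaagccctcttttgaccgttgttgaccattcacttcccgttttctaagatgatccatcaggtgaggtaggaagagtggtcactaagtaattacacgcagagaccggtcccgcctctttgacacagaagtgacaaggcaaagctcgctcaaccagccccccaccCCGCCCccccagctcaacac

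The Sptlc2 window held 2 GC boxes and 3 CCAAT boxes, the S1pr3 and Galc windows held 1 GC box each, and the printed Sphk1 window held 1 E-box and 1 CCAAT box. Over 32817 promoter windows of the same length, 32.7% held a GC box, 33.8% a CCAAT box, 6.02% this E-box, 12.4% the TATA box and 6.75% the AP-1 site. No motif was found in all 4 printed windows. GC content was 51.6% for Sphk1, 56.4% for S1pr3, 55.2% for Sptlc2 and 54.0% for Galc, beside a median of 52.4% over all windows.

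Among all members, levels per kilobase of exon covered a wide range. Ormdl3 was the highest at a mean of 7392 over the 6 mice, followed by Cers2 at 2451, Sptssa at 2130, Degs1 at 1943, Asah1 at 1527, S1pr1 at 1350, Sgpl1 at 1274 and Smpd1 at 1014. Ormdl3 lay above the others in every mouse, and Cers2 at 2554 ± 343 lay above Sptssa at 1862 ± 227 (SD, n = 3) without overlap in control mice. In AKO mice the levels of Cers2, 2348 ± 166, and Sptssa, 2398 ± 411 (SD, n = 3), overlapped. The lowest were Cers3 at 2.4 and Sgpp2 at 2.9 per kilobase.

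Genes that supply or use the same lipids were followed as 64 further tested genes, of which 5 were lower and 1 was higher at an unadjusted p under 0.05 (5.27% and 3.08% of all tested genes), and none had an adjusted p under 0.05 in limma or edgeR, while DESeq2 called B4galt5. Groups did not overlap in 5 lower and 1 higher of the 64 genes, which is 7.8% and 1.6%. Among all tested genes these shares were 8.16% and 6.82%, so lack of overlap was not more frequent in the related genes. The 17 genes of fatty acid elongation and activation included Elovl1, which makes the very long acyl chains that Cers2 uses. Elovl1 measured 2113, 2006 and 1508 in control and 1539, 1293 and 1391 in AKO mice, with AKO 3 just above control 5 (log2 fold change -0.40, SE 0.16, limma adjusted p = 0.590). Fa2h, which hydroxylates acyl chains, measured 82.8, 72.2 and 54.7 in control and 21.7, 48.7 and 32.4 in AKO mice without overlap (-1.06, SE 0.43, limma adjusted p = 0.590, and -1.79 without the 3 mice with muscle transcripts).

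B4galt5, which encodes a lactosylceramide synthase and so acts just after Ugcg, had the most marked difference of the 20 glycosphingolipid genes. It measured 1948, 2542 and 2477 in control and 1223, 402 and 740 in AKO mice, and no AKO mouse reached the control range. Its log2 fold change was -1.69 (SE 0.38, 95% interval -2.60 to -0.78), with an adjusted p of 0.520 in limma, 0.569 in edgeR and 0.0092 in DESeq2, and its unadjusted p was under 0.05 in 17 of 17 alternatives. Without the 3 mice with muscle transcripts its log2 fold change was -0.86. AKO 4 was the lowest mouse and AKO 3 the highest AKO mouse, the same order as for Sphk1 and S1pr3.

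B4galt6, the other lactosylceramide synthase, measured 738, 677 and 1059 in control and 596, 415 and 667 in AKO mice, also without overlap (-0.56, SE 0.25, limma adjusted p = 0.607). B4galnt1, which makes complex gangliosides, measured 575, 555 and 344 in control and 292, 257 and 337 in AKO mice (-0.70, SE 0.25, limma adjusted p = 0.565). Its groups did not overlap either, although AKO 5 lay only just below control 5. Neu3, a ganglioside sialidase, measured 53.4, 81.5 and 94.97 in control and 136, 133 and 122 in AKO mice, all AKO mice higher (0.80, SE 0.31, limma adjusted p = 0.575).

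**Figure D5:**
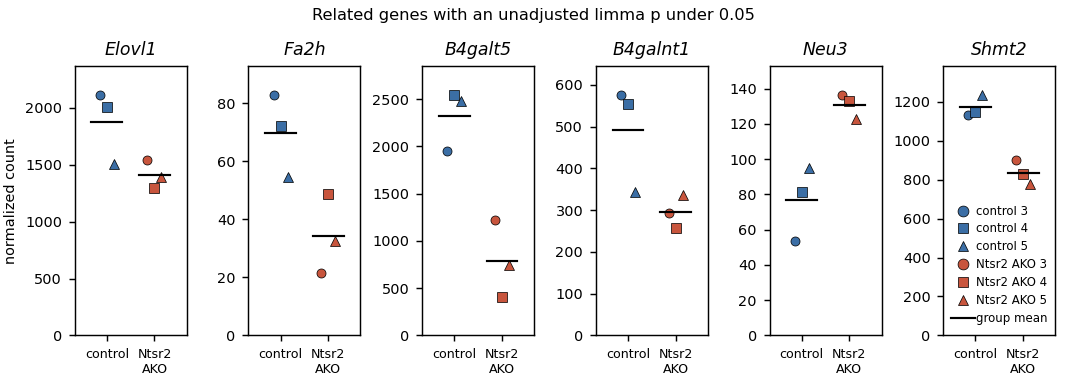
Normalized counts of the 6 related genes with an unadjusted limma p under 0.05 in each of the 3 control (blue) and 3 Ntsr2 AKO (red) mice, on linear axes from 0, with a line for the group mean. B4galt5 and Shmt2 show a clear gap between the groups, Neu3 is higher in the AKO mice, and Elovl1 overlaps at 1508 and 1539.

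Among the 11 genes of serine supply and other regulators, Shmt2, the mitochondrial serine hydroxymethyltransferase, measured 1134, 1148 and 1235 in control and 901, 830 and 776 in AKO mice without overlap (log2 fold change -0.49, SE 0.13, limma adjusted p = 0.522, DESeq2 adjusted p = 0.055). None of the 7 other S1P genes and none of the 9 genes for the kinase CK2, RhoA and its kinases, adiponectin and its receptors had an unadjusted p under 0.05.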

How the data were processed

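RNA-seq of adipose tissue from 3 control and 3 Ntsr2 AKO mice was analysed from the deposited table of 21456 genes. The authors trimmed reads with Trimmomatic, aligned them with HISAT2, quantified them with StringTie and tested with DESeq2, and the submitters' processing notes name mm10; the annotation is not given in the sources used here. The deposited values are a signal on the scale of read counts divided by a size factor per mouse. Each column divided by the value of 1 read gave whole numbers for 100% of values (tolerance 0.001), which recovered the reads. Whether mice were littermates is not stated, and no mice differed by as little as sampling noise. Intervals and floors of 3 reads cover counting error only where they rest on reads, and the number of mice limits precision.

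Values were tested as log2(normalized count + 1) in R 4.3.3 with limma 3.58.1 (two-sided, mean-variance trend, no covariates) for 16157 genes with a mean of at least 10, with Benjamini-Hochberg adjustment over all of them and a threshold of 0.05. Fold changes on this scale understate low genes. The recovered reads were also tested with edgeR 4.0.16 (quasi-likelihood, TMM) and DESeq2 1.42.0. Scripts were tested on simulated data. Levels per kilobase used the union of GENCODE exons.

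The members and lists were chosen with earlier results of these data known. Values in every mouse are given for the ceramide synthases, Col4a3bp, members with an unadjusted p under 0.05, without overlap, or highest or lowest in their role, and related genes with an unadjusted p under 0.05. Other genes with values in every mouse, Ormdl3, Smpd3, B4galt6 and Gdf1, were chosen after their values were seen. Alternatives were pseudocounts of 0.1 and 5, no filter, a mean of at least 50, quantile normalization, no trend, the replicate block, both count models and leaving out each mouse. Thinning reads to the smallest total and leaving out the 3 mice with muscle transcripts were added after the data were seen.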

Additional observations from a re-analysis of the deposited data

How the results depend on the processing

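No member passed the adjusted threshold under any limma setting or edgeR, and DESeq2 called 1. The 2 lower and 1 higher members at an unadjusted p under 0.05 became 4 and 2 with DESeq2, 1 and 3 with quantile normalization, 1 and 1 without the trend (Sphk1 and Galc), 1 and 1 without the 3 mice with muscle transcripts (Sphk1 and, in place of Galc, Smpd3), and 1 to 3 lower and 0 to 2 higher when 1 mouse was left out. Sphk1 was among them under every setting. Leaving out control 4, control 5 or AKO 4 left Sphk1 as the only lower member, and leaving out AKO 4 left 0 higher. The members' median was 0.0066 with quantile normalization and -0.09 to -0.04 with 1 mouse left out. Over all genes, 1 passed the adjusted threshold, and 0 with no filter, without the trend, with edgeR, without the 3 mice or with any 1 mouse left out (0 to 0), but 219 with DESeq2. The cause of these differences was not tested.

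The log2 fold changes of 16 members changed sign under at least 1 setting, and those of the other 21 and of the 7 related genes named did not. Quantile normalization gave 0.0089 for Acer2, 0.037 for Asah1, 0.0066 for Cers2, 0.033 for Degs1, 0.044 for Ormdl2, 0.042 for Sphk2 and 0.045 for Sptlc1. Acer2, Sgpp2 and Sphk2 measured 0.010, 0.50 and 0.0063 with edgeR and 0.0059, 0.50 and 0.0016 with DESeq2, and Sgpp2 0.050 with a pseudocount of 5. Without the 3 mice, Cers5 measured -0.036, Sgpp2 0.16, Smpd2 -0.18, Smpd3 1.51 and Sptssa -0.018. With 1 mouse left out, Acer2 ranged from -0.40 to 0.28, Acer3 from -0.23 to 0.19, Asah1 from -0.17 to 0.055, Cers5 from -0.020 to 0.16, Degs1 from -0.16 to 0.0071, Gba2 from -0.021 to 0.11, Ormdl2 from -0.15 to 0.12, S1pr2 from -0.42 to 0.20, Sgpl1 from -0.00047 to 0.12, Sgpp2 from -1.37 to 1.06, Smpd2 from -0.034 to 0.13, Smpd3 from -0.82 to 0.36 and Sphk2 from -0.081 to 0.085.

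The replicate numbers 3, 4 and 5 occur in both groups, and the main test did not take them as pairs. The deviations of same-numbered mice correlated at 0.45, -0.24 and 0.41. The values 0.45 and 0.41 were the highest of all combinations, but not every mouse correlated best with its own number. With 3 mice per group these correlations depend on each other and cannot decide whether the numbers mark pairs. With the replicate block, 3 members were lower and 0 higher at an unadjusted p under 0.05 (Sphk1, Sgms1 and S1pr1), 0 members and 0 genes passed the adjusted threshold, and the median was -0.08. Wide intervals limit Smpd3, Sgpp2, Acer2 and Cers6, and Cers1 and Cers3 have too few reads to compare.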
